A study of Mus musculus with 4 samples.

Results

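The genes described here are 9 genes of the YAP and TEAD pathway in cultured mouse keratinocytes: the coactivator Yap1, its DNA-binding partner Tead1, the pathway regulators Lats2, Amotl2 and Ajuba, and the known target genes Ccn1, Ccn2, Ankrd1 and Fjx1. They were found by gene symbol in the annotation of an Affymetrix mouse 430A array, where 18 of 22626 probe sets name 1 of them alone. The table names 12393 genes in all. A gene is called measured here if at least 1 of the 4 arrays gave it an intensity no lower than the table's median, 20.04 units, which held for 7461 genes and for 6 of the 9 (Yap1, Amotl2, Ajuba, Ccn1, Ccn2 and Fjx1). The genes were chosen with their levels on these arrays known, so their differences are given as a description.

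YAP is a transcriptional coactivator that does not bind DNA itself. In the Hippo pathway, a kinase cascade that responds to cell density, polarity and tension, the MST kinases activate the LATS kinases, which phosphorylate YAP and its paralog TAZ (gene Wwtr1) and keep them in the cytoplasm. Unphosphorylated YAP enters the nucleus, binds TEAD transcription factors and activates growth-related genes, some of which, such as Lats2 and Amotl2, act back on the pathway as inhibitors. In the epidermis YAP is known for its activity in basal cells, where it favours proliferation.

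The cells were primary keratinocytes from tail skin of mice of the C57BL/6 congenic strain, and all carried a floxed Prdm1 gene, which encodes the transcriptional repressor Blimp-1. Cells called CKO also expressed CreER, a Cre recombinase that works once it binds 4-hydroxytamoxifen (4OHT), and control cells lacked it. Both were kept in serum-free medium with either 4OHT or ethanol (EtOH), in which the drug was dissolved, between day 1 and day 3 and were collected on day 5, which gives the groups CKO 4OHT, CKO EtOH, control 4OHT and control EtOH. Where 4 values stand without group names, they follow this order. Each group had 1 array, so no difference was tested and no value has an error. The genotypes came from different mice, and the sources used here do not give the age and number of the mice or the promoter that drives CreER.

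Array medians ran from 19.95 to 20.22 units. Prdm1 was at 6.43 in CKO 4OHT, 17.0 in CKO EtOH, 52.4 in control 4OHT and 20.7 in control EtOH, so it was lowest on the array labelled as deleted, and the drug-treated control was above both solvent arrays. The sources used here do not say whether this probe set (1420425_at) lies in the floxed part. All 7 keratinocyte markers on the array were measured, with a summed intensity of 14664 to 15764 per array. By brightest probe sets, 1 of the 7, Itgb4, was higher in CKO 4OHT, by 0.80 on the log2 scale against both CKO EtOH and control 4OHT. The other 6 were lower, down to -0.19 and -0.55 (Cdh1). The 4OHT effect in CKO cells minus that in control cells was 1.11 for Itgb4 and -0.70 for Cdh1. Of the markers of other cells, 1 of 7 for fibroblasts (Dcn), 1 of 7 for leukocytes (Cd3e), 1 of 6 for endothelium (Egfl7), 1 of 6 for smooth muscle and pericytes (Acta2) and 4 of 6 for melanocytes (Dct, Tyrp1, Pmel and Sox10) were measured. The fibroblast collagens Col1a1, Col1a2 and Col3a1 and the leukocyte gene Ptprc were under the median on every array.

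The signal carriers of the pathway were examined first. Yap1 is read by 2 probe sets, which did not share a direction. The brighter one (1448363_at) had intensities of 165 in CKO 4OHT, 184 in CKO EtOH, 210.0 in control 4OHT and 216 in control EtOH. CKO 4OHT was the lowest array there, 0.15 below CKO EtOH and 0.34 below control 4OHT on the log2 scale. The dimmer one (1416487_a_at) had 72.6, 55.0, 58.1 and 53.7. By that probe set CKO 4OHT was the highest array, 0.40 above CKO EtOH and 0.32 above control 4OHT. Neither probe set reached a 2-fold difference between any pair of arrays, and the sign of the Yap1 difference depends on the probe set.

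Tead1, a TEAD factor that brings YAP to DNA, was dim. Its probe set (1423434_at) read 6.16 in CKO 4OHT, 7.25 in CKO EtOH, 6.46 in control 4OHT and 5.40 in control EtOH. These values lie between the 15.2nd and 25.3rd percentiles of their arrays, so Tead1 was not measured and no difference is read from it. The other factors of this layer come from a list of 6 coactivators and TEAD genes, of which 4 were measured. Each read by its brightest probe set, none of the 4 differed 2-fold in any comparison. Of all measured genes, 1.78% were 2-fold higher and 1.86% lower in CKO 4OHT against CKO EtOH. The list's median in CKO 4OHT against CKO EtOH was -0.24. Wwtr1, the gene of TAZ, was at 123, 155, 143 and 146 by its brightest probe set. Tead4, named here after its values were seen, was 0.30 higher in CKO 4OHT than in CKO EtOH by 1 probe set (1460683_at) and 0.95 higher by the other (1426337_a_at, 28.2 against 14.6), whose difference of the 4OHT effects in CKO and control cells was 1.02, against 0.07 by the brighter one. Tead3, also named after its values were seen, lay on the other side, at 33.0 in CKO 4OHT, 50.8 in CKO EtOH, 36.7 in control 4OHT and 34.4 in control EtOH. That is -0.62 against CKO EtOH and -0.15 against control 4OHT, with CKO EtOH its highest array. Tead2 was under the median on every array.

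**Figure D1:**
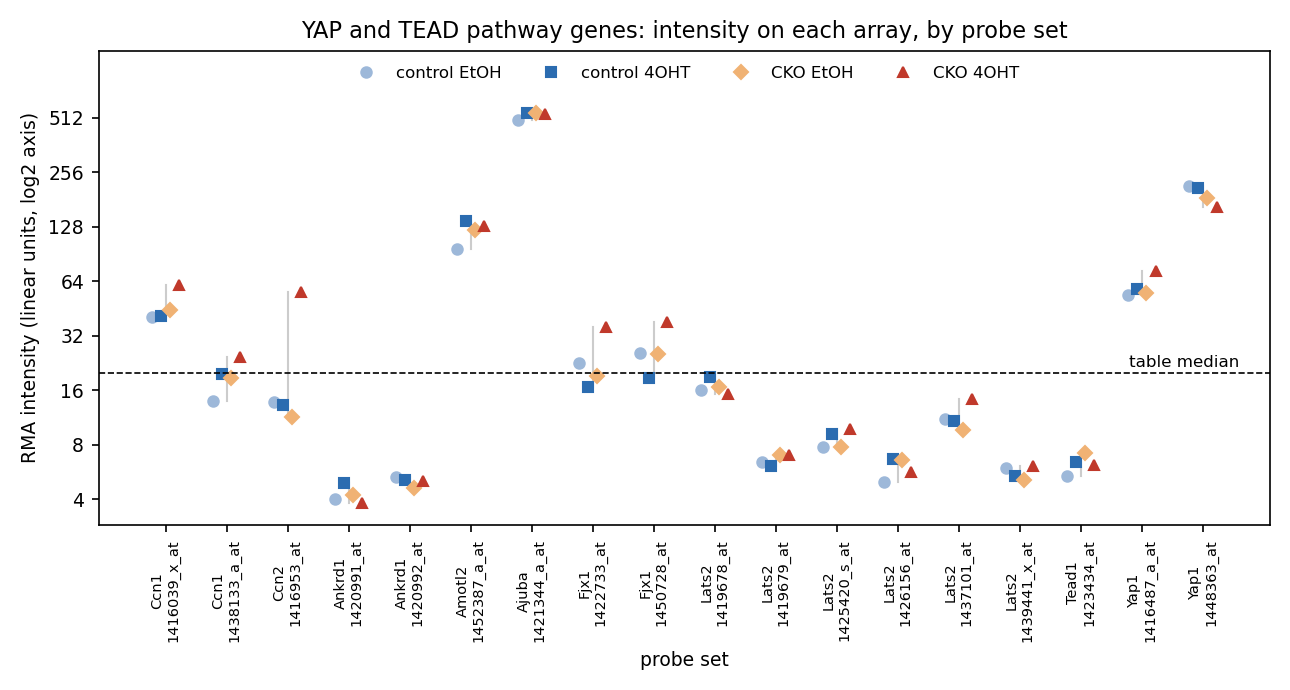
RMA intensity (log2 axis, linear units) of the 18 probe sets of the 9 genes on each of the 4 arrays, 1 point per array, with a grey line from the lowest to the highest value and a dashed line at the median of the table. Ccn2 stands at 55.7 in CKO 4OHT and at 11.5 to 13.8 on the other arrays, both Fjx1 probe sets are highest in CKO 4OHT, and the Ankrd1, Lats2 and Tead1 probe sets lie under the dashed line.

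The regulators showed little difference between the arrays. Ajuba, a LIM-domain protein that restrains LATS kinases, was at 536 in CKO 4OHT, 542 in CKO EtOH, 541 in control 4OHT and 498 in control EtOH. The whole range of its levels was 0.12 on the log2 scale. Amotl2, a member of the angiomotin family that binds YAP and keeps it out of the nucleus, was at 129.5, 123, 137 and 95.9. Its lowest array was control EtOH, and CKO 4OHT lay between the other arrays, 0.08 above CKO EtOH and 0.08 below control 4OHT. The larger differences of Amotl2 were among cells without induced Cre: 0.51 for control 4OHT against control EtOH and 0.36 for CKO EtOH against control EtOH.

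Lats2, the kinase that phosphorylates YAP and is itself a YAP target, has 6 probe sets that name it alone, and none reached the median. Their intensities ran from 5.00 to 18.9 over all arrays. The brightest (1419678_at) was at 15.2 in CKO 4OHT, 16.6 in CKO EtOH, 18.9 in control 4OHT and 16.01 in control EtOH, so CKO 4OHT was its lowest array. A dimmer one (1437101_at) was highest in CKO 4OHT, at 14.3, with the others between 9.71 and 11.1. The log2 range of the 6 probe sets over the arrays was 0.21 to 0.56. A further probe set (1421055_at), annotated to Xpo4 and Lats2 together, was at 53.9 to 58.1, and it cannot be given to either gene.

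Ccn2 and Fjx1 were the measured members with the largest differences in CKO 4OHT. Ccn2, formerly Ctgf, encodes a secreted matricellular protein and is among the most used readouts of YAP activity. Its single probe set (1416953_at) had intensities of 55.7 in CKO 4OHT, 11.5 in CKO EtOH, 13.3 in control 4OHT and 13.8 in control EtOH. The other arrays lay within 1.20-fold of each other, and CKO 4OHT was 4.04-fold above the highest of them. On the log2 scale the difference was 2.28 against CKO EtOH and 2.07 against control 4OHT. Ccn2 reached the median of the table in CKO 4OHT alone, so the fold rests on dim values on the other side. With 16 units added to every value, the difference against CKO EtOH was 1.38, and with all values raised to at least the median it was 1.47.

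Fjx1, a secreted or Golgi-resident protein related to Drosophila four-jointed, was the second gene. Its brighter probe set (1450728_at) had intensities of 38.0 in CKO 4OHT, 25.2 in CKO EtOH, 18.8 in control 4OHT and 25.8 in control EtOH. The other probe set (1422733_at) had 36.0, 19.3, 16.7 and 22.6. Both were highest in CKO 4OHT and lowest in control 4OHT. CKO 4OHT was above the next array by 1.47-fold and 1.59-fold in turn. The log2 difference was 0.59 and 0.90 against CKO EtOH and 1.02 and 1.11 against control 4OHT, so the 2-fold mark was passed only against the drug-treated control, whose level was 0.46 and 0.44 below that of control EtOH. With 16 units added to every value, the difference of the brighter probe set against control 4OHT was 0.63.

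Ccn1, formerly Cyr61 and a relative of Ccn2, showed a smaller difference of the same sign. Its brighter probe set (1416039_x_at) was at 60.9 in CKO 4OHT, 44.4 in CKO EtOH, 41.3 in control 4OHT and 40.4 in control EtOH. CKO 4OHT was highest, by 1.37-fold over the next array, while the other arrays lay within 1.10-fold of each other. The dimmer probe set (1438133_a_at) was at 24.4, 18.6, 19.7 and 14.0. It too was highest in CKO 4OHT, by 1.24-fold, but its other arrays spread over 1.41-fold. Both probe sets are of types that can read related transcripts, which their names end in _x_at and _a_at to show.

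Ankrd1, a cardiac and muscle ankyrin repeat protein and a strong YAP target in many cell types, gave no readable signal. Its probe sets were at 4.62 to 5.29 (1420992_at) and 3.79 to 4.93 (1420991_at) over the arrays. All these values were below the 25th percentile of their arrays, which was 7.11 to 7.48. Other members of the CCN family, Ccn3, Ccn4 and Ccn5, were likewise under the median on every array. In these bulk cultures fewer expressing cells and less RNA per cell cannot be told apart for any of the genes.

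Upstream sequence was read for the genes because YAP acts through TEAD factors, which bind the motif CATTCC or, on the other strand, GGAATG. RefSeq promoters of build GRCm38.p6 were matched by symbol for 6 of the 9 genes (Ccn1, Ankrd1, Amotl2, Ajuba, Lats2 and Yap1); Ccn2, Fjx1 and Tead1 were not matched in the promoter table used here. In the 250 bases before the start, 5 of the 6 hold the motif, against 14.4% of the 27025 genes in the table, 3880 in number. The stretches that hold it are printed 5′ to 3′ on the strand of the gene, with the motif in capitals. They come from chr3:145650053-145650118 (Ccn1, minus strand), chr19:36119932-36120084 (Ankrd1, minus strand), chr9:102717709-102717774 (Amotl2, plus strand), chr14:54577790-54577877 (Ajuba, minus strand) and chr9:8004702-8004767 (Yap1, minus strand).
Ccn1: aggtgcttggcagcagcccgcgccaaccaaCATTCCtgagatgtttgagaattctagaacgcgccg
Ankrd1: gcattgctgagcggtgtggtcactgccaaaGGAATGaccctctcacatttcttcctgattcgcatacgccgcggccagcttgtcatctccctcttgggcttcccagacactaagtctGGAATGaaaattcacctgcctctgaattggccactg
Amotl2: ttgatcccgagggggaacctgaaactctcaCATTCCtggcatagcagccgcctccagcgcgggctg
Ajuba: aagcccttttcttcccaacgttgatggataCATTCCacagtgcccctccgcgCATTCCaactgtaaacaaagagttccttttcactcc
Yap1: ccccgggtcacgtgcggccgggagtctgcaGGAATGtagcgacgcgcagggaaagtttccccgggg
The motif begins 103 bases before the start in Ccn1, 65 in Amotl2 and 141 in Yap1. It occurs at 210 and 123 bases in Ankrd1 and at 186 and 164 bases in Ajuba, each pair on the same strand. Of the genes that hold it, Ccn1 was highest in CKO 4OHT, Ajuba and Amotl2 differed by at most 0.08 between CKO 4OHT and either compared array, Yap1 had no sign common to its probe sets, and Ankrd1 was not measured. The motif of AP-1, TGANTCA, which reads the same on both strands, is in the 250 bases of 0 of the 6 genes and of 7.82% of all. The genes were picked as genes of this pathway, so nothing is read from either share. Of the 15 matched genes of the YAP and TAZ target signature described below, 6 (40.0%) hold the TEAD motif, Ccn1, Ankrd1 and Amotl2 among them. A match is a description of letters and not a bound site.

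The first comparison was within the CreER cells, with and without the drug. In CKO 4OHT against CKO EtOH, 1 of the 6 measured genes, Ccn2, was at least 2-fold higher and none was lower, where 1.78% of all measured genes were higher and 1.86% lower. At 1.5-fold Fjx1 joined it (0.59), which makes 2 of 6, against 5.67% of all genes. Ccn1 followed at 0.46, Amotl2 was at 0.08, Ajuba at -0.02 and Yap1 at -0.15. The median of the 6 differences was 0.27, and that of all measured genes was 0.01. Because the genes were chosen with these values known, nothing is read from the share.

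CKO 4OHT against control 4OHT compared cells with and without CreER, both with the drug. Ccn2 (2.07) and Fjx1 (1.02) were at least 2-fold higher, 2 of the 6, and none was lower, where 1.45% of all measured genes were higher and 2.24% lower. Ccn1 was at 0.56, and Ajuba (-0.01), Amotl2 (-0.08) and Yap1 (-0.34) were at or below 0. Both comparisons share the CKO 4OHT array, so their likeness for these genes is no second observation. Taking all arrays at once, Ccn2 was the 1 gene of the 6 that lay at least 2-fold above every other array in CKO 4OHT, as did 0.751% of measured genes. CKO 4OHT was the highest array for 3 of the 6 genes, Ccn1, Ccn2 and Fjx1, and for 31.6% of all measured genes.

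**Figure D2:**
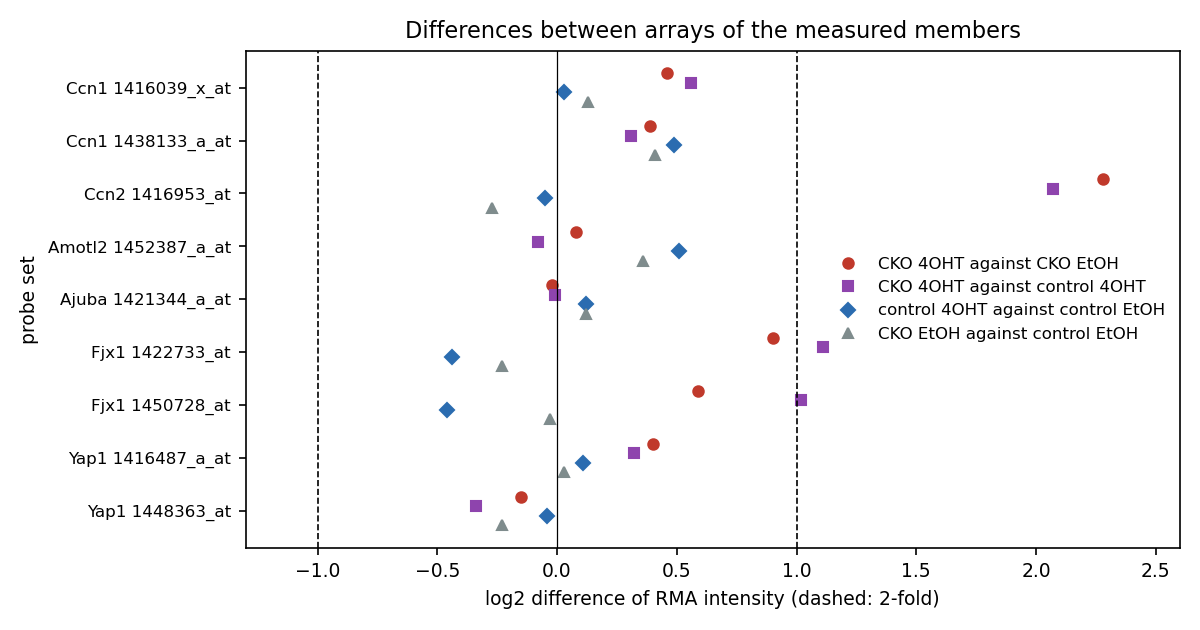
Log2 difference of RMA intensity between pairs of arrays for the 9 measured probe sets of Ccn1, Ccn2, Amotl2, Ajuba, Fjx1 and Yap1, 1 symbol per comparison, with dashed lines at 2-fold. Ccn2 lies at 2.28 and 2.07 in the comparisons of CKO 4OHT, Fjx1 reaches 2-fold only against control 4OHT, and the Yap1 probe sets lie on opposite sides of 0 for CKO 4OHT.

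Control 4OHT against control EtOH showed the drug in cells that lack CreER. None of the 6 genes was 2-fold different, where 1.27% of measured genes were higher and 0.241% lower. Amotl2 was highest at 0.51 and Fjx1 lowest at -0.46, with Ccn1 at 0.03 and Ccn2 at -0.05. The dimmer Ccn1 probe set gave 0.49. CreER without the drug was read from CKO EtOH against control EtOH, where again none of the 6 was 2-fold different and 0.0536% of measured genes were. Amotl2 (0.36) and Ccn2 (-0.27) were the ends of the range there.

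The layout also gives the difference of the drug effects, that is, the 4OHT effect in CKO cells minus that in control cells. It was at least 2-fold for 2 of the 6 genes, Ccn2 (2.34) and Fjx1 (1.05, and 1.33 by its second probe set), both positive, where 5.64% of measured genes passed 2-fold in either direction. For Ccn2 almost all of it came from the CKO cells. For Fjx1 it was made of a higher level with the drug in CKO cells (0.59) and a lower one in control cells (-0.46). Ccn1 was at 0.42 by its brighter probe set and -0.10 by the other, Yap1 at -0.11, Ajuba at -0.14 and Amotl2 at -0.44. Each of these values is built from 4 single arrays.

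**Figure D3:**
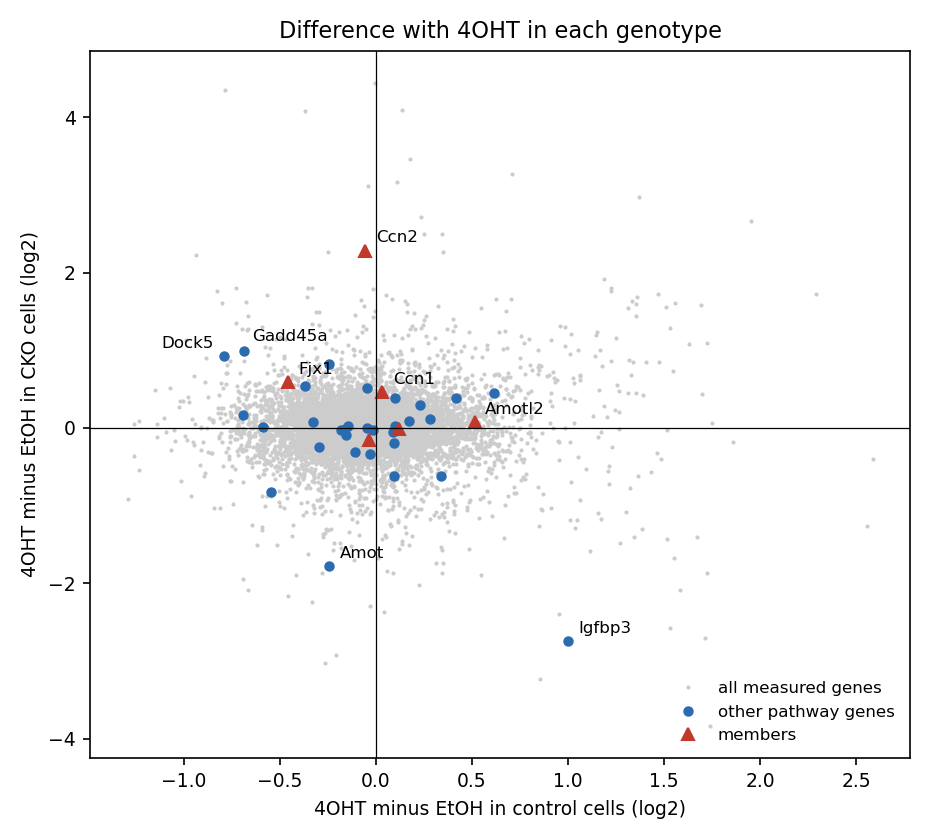
Log2 difference of 4OHT against EtOH in control cells (horizontal axis) and in CKO cells (vertical axis) for the 7461 measured genes (grey), the measured genes of the pathway lists (blue) and the 6 measured members (red triangles). Ccn2 lies at -0.05 and 2.28, Fjx1 at -0.46 and 0.59, and Igfbp3 at 1.00 and -2.75, while the other triangles lie between -0.15 and 0.46 on the vertical axis.

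The surrounding pathway was described with lists of 65 genes in all, of which 50 are named on the array and 38 were measured, the 6 genes above among them. Of the Hippo kinases and their adaptors, 12 of 17 were measured and, each read by its brightest probe set, none differed 2-fold in any comparison. Of all measured genes, 1.78% were 2-fold higher and 1.86% lower in CKO 4OHT against CKO EtOH. With 12 genes, nothing is read from the lack of a call. Mob1a, a LATS activator, was at 241 in CKO 4OHT, 246 in CKO EtOH, 221 in control 4OHT and 223 in control EtOH. Wwc1, the upstream scaffold KIBRA, was at 168, 174, 181 and 170.2. By the brightest probe sets, the widest difference between CKO 4OHT and CKO EtOH in this list was 0.54, for the MST kinase gene Stk4, and the median was -0.01. Stk4 reached the median of the table in CKO 4OHT alone (22.8). It was at 0.79 against control 4OHT and 0.91 in the difference of drug effects. Map4k4 was at 0.08 against CKO EtOH by its brightest probe set, and at 0.63 (1422615_at) and 0.59 (1448050_s_at) by dimmer ones. Lats1 was not measured, and Stk3 is not named on the array.

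Of 19 YAP cofactors and inhibitors, 10 were measured, and 1 of them, Amot, differed 2-fold. Amot encodes angiomotin, the founding relative of Amotl2, which binds YAP. Its probe set 1454890_at was at 7.53 in CKO 4OHT, 25.9 in CKO EtOH, 22.8 in control 4OHT and 27.0 in control EtOH. The CKO 4OHT level was far below the other arrays, by -1.78 against CKO EtOH and -1.60 against control 4OHT, and it lies at the 26.8th percentile of its array. Of all measured genes, 1.86% and 2.24% were 2-fold lower in these comparisons. The call was lost with 16 units added (-0.83 and -0.72) and with values raised to at least the median (-0.37 and -0.19), and Amot was no longer measured by the mean of its probe sets. The other Amot probe sets did not share this and read 10.8 to 13.4 (1425907_s_at) and 11.6 to 14.2 (1427584_at), all under the median. Sfn, the 14-3-3 protein sigma of the epidermis, had the highest difference of the list against CKO EtOH (0.39), and the list's median was -0.01.

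Common targets came from a published signature of 22 YAP and TAZ target genes, of which 19 are named on the array and 14 were measured, 4 of them (Amotl2, Ccn1, Ccn2 and Fjx1) members described above. In CKO 4OHT against CKO EtOH, 1 was at least 2-fold higher (Ccn2) and 1 lower (Igfbp3), with a median of 0.42, where 1.78% of all measured genes were higher and 1.86% lower. At 1.5-fold 5 were higher and 3 lower, where 5.67% of all genes were higher and 5.47% lower. Against control 4OHT, 4 were at least 2-fold higher, Ccn2, Fjx1, Gadd45a and Dock5, and Igfbp3 was lower, with a median of 0.26, where 1.45% of all genes were higher and 2.24% lower. With 16 units added, Fjx1 (0.63) and Dock5 (0.73) were under 2-fold. The median of all measured genes was 0.01 in both comparisons, which share the CKO 4OHT array. Because the 4 members were chosen with their values known, nothing is read from the signature's shares or medians. Without the members, 32 genes of all the pathway lists were measured. Of these, 0 were 2-fold higher and 2 lower against CKO EtOH, and 2 and 2 against control 4OHT, with a median of 0 in each. In the difference of drug effects the signature's median was -0.06, with 6 genes above 0 and 8 below, and that of all genes was 0.04. There 5 were at least 2-fold higher (Ccn2, Fjx1, Gadd45a, Dock5 and Myof) and Igfbp3 lower, against 5.64% of all genes in either direction. Axl, Nt5e, F3 and Asap1 were above 0 in both comparisons of CKO 4OHT, by 0.06 to 0.46. They were also higher with the drug in control cells, by 0.61, 0.28, 0.41 and 0.17 in turn, and their differences of drug effects were -0.16, -0.16, -0.03 and -0.08.

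Igfbp3, a binding protein of insulin-like growth factors, was the signature gene furthest below the other arrays. Its intensity was 99.9 in CKO 4OHT, 672 in CKO EtOH, 797 in control 4OHT and 399 in control EtOH. CKO 4OHT was lowest by a wide margin and control 4OHT highest, which gives -2.75 against CKO EtOH and -3.00 against control 4OHT. Igfbp3 was also the 1 gene of the lists that reached 2-fold with the drug in control cells (1.00). Igfbp3 and Ccn2 are both counted as YAP targets in this signature and lay on opposite sides of the other arrays in CKO 4OHT.

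Gadd45a, a stress gene that acts on growth arrest and DNA repair, was at 101.8 in CKO 4OHT, 51.4 in CKO EtOH, 39.6 in control 4OHT and 63.9 in control EtOH. It was highest in CKO 4OHT and lowest in control 4OHT, with differences of 0.98 against CKO EtOH and 1.36 against control 4OHT. Dock5, a guanine nucleotide exchange factor of Rac, was at 46.2, 24.4, 21.6 and 37.5, with 0.92 and 1.10. Its control EtOH level was close to that of CKO 4OHT, and a second, dimmer probe set gave 0.35 and 0.69. Further genes outside the naming rule, given after their values were seen, were Myof, a membrane repair protein (0.82 and 0.76, with 1.07 in the difference of drug effects), Ptpn14, a phosphatase that holds YAP in the cytoplasm (-0.62 and -0.56), and Crim1 (-0.82 and -0.76). Stk4, Map4k4, Sfn, Axl, Nt5e, F3 and Asap1, described above, were outside the rule too and were given after their values were seen.

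**Figure D4:**
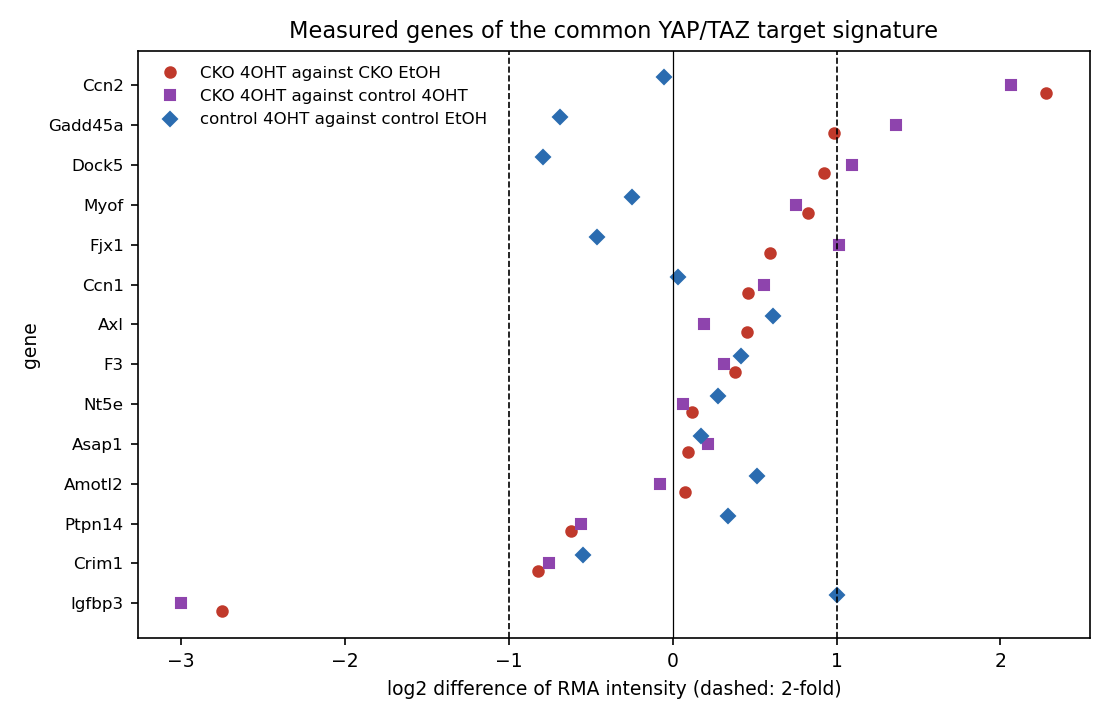
Log2 difference of RMA intensity for the 14 measured genes of the common YAP and TAZ target signature, ordered by CKO 4OHT against CKO EtOH, with 1 symbol for each of 3 comparisons and dashed lines at 2-fold. Ccn2 is at the top (2.28), Igfbp3 at the bottom (-2.75), and most genes lie within 2-fold.

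Some markers of other cells also differed between CKO 4OHT and the other arrays. Acta2, smooth muscle actin, was at 84.8 in CKO 4OHT, 189 in CKO EtOH, 225 in control 4OHT and 155 in control EtOH. It was lowest where Ccn2 was highest, but less than 2-fold below control EtOH. The summed intensity of the 6 smooth muscle and pericyte markers was 143 in CKO 4OHT and 211 to 285 elsewhere. Acta2 is the only measured marker of the 6 and makes up most of each sum, so the sum is no second observation. The 6 melanocyte markers summed to 146 in CKO 4OHT and to 119 to 129 on the others. By their brightest probe sets, the 4 measured melanocyte genes differed from CKO EtOH by 0.18 to 0.55 and from control 4OHT by -0.06 to 0.55. A second probe set of Tyrp1 was 1.09 higher in CKO 4OHT than in CKO EtOH and 1.40 higher than in control 4OHT. The fibroblast markers summed to 67.6 to 73.7 with no array apart, the leukocyte markers to 75.5 to 77.0 and the endothelial markers to 105 to 115. The part of the melanocyte and smooth muscle signals in the Ccn2, Fjx1 and Igfbp3 differences was not tested.

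Genes with the most similar pattern were sought for the members whose log2 range over the 4 arrays was at least 1, Ccn2 and Fjx1. Likeness was the Euclidean distance between log2 values centred on each gene's own mean, over 4 arrays and 7423 measured genes outside the pathway lists. Nearest to Ccn2 were Prom1, the membrane protein prominin (distance 0.18), at 47.0, 9.78, 11.4 and 13.6, and Ptges, a prostaglandin E synthase (0.32), at 388, 80.6, 97.4 and 76.5. Nearest to Fjx1 were Ubxn8 (0.07), at 27.2, 17.5, 13.9 and 18.9, and BC003965 (0.09), at 230.3, 163, 115 and 155. Prom1 and Ubxn8 reached the median of the table in CKO 4OHT alone. With 4 arrays, many genes come close to any pattern.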

How the data were processed

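The authors' deposited values are linear intensities, 1 for each array and probe set, made with RMA (background correction, normalization between arrays, summary of probes), per the submitters' processing notes; the sources used here give no version or settings. RMA pulls arrays to similar distributions and compresses dim differences, and the table has no detection calls. Here log2 was taken with no pseudocount (Python 3.11.15, pandas 2.3.3, numpy 2.4.6). Platform annotation named 1 gene for 20380 probe sets, several for 691 and none for 1555. By Entrez identifier 20351 were found in RefSeq's gene table (GRCm38.p6), with 0 changed symbols. A gene was read by its probe set with the highest mean log2 value. With 1 array per group no test was run; a difference counted at 2-fold. The number of arrays limits the precision. The members, the gene lists and the tests were chosen with earlier results of these data known. The rule for named genes took the members, list genes at least 2-fold different or apart on an array, otherwise the 2 brightest of a list, and the 2 genes nearest to each varying member. Counting steps were tested on simulated data. Alternatives covered filter, threshold, probe set choice, scaling, pseudocount and floor.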

Additional observations from a re-analysis of the deposited data

Results flagged for a closer look

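For 6 of the 38 measured genes of the pathway lists, the members included, the level differed with 4OHT in opposite directions in CKO and control cells, and the difference of the effects was at least 2-fold. Whatever the signs, 7 of the 38 genes and 5.64% of all measured genes had a difference of drug effects that large. The share of all measured genes that meet both conditions was not counted, so nothing is read from the 6. Ccn2 and Fjx1, which are among them, were chosen with their values known. With 1 array per group these differences were not tested. The 4OHT effect in CKO cells minus that in control cells was 2.34 for Ccn2 and 1.05 for Fjx1. For Ccn2 the control effect was only -0.05, and 0 with values raised to at least the median, so its opposite sign carries no weight. It was 1.67 for Gadd45a, 1.72 for Dock5, 1.07 for Myof and -3.75 for Igfbp3. That of Myof was 0.76 by the mean over its probe sets. For Igfbp3, the drug-treated control was above its solvent control by 1.00 and the difference of CKO 4OHT from CKO EtOH was -2.75.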

How the results depend on the processing

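No paired analysis was possible because each group has 1 array. Ccn2 stayed at least 2-fold higher in CKO 4OHT against both CKO EtOH and control 4OHT in each alternative that kept it, and it passed 3-fold. No filter, another threshold and the mean over probe sets could not change its values, since it has a single probe set. Median centring gave 2.28 and 2.09, and quantile normalization 2.26 and 2.09. The values fell to 1.38 and 1.29 with a pseudocount of 16 and to 1.47 and 1.47 with a floor at the median. A level filter at 4 times the median removed Ccn1, Ccn2 and Fjx1, the members highest in CKO 4OHT. That left 0 members apart in CKO 4OHT. It also left 0 past the mark against CKO EtOH, against control 4OHT and in the difference of drug effects, where the pathway lists then had 1, 2 and 3 genes. With the second probe set, which Ccn2 lacks, the members apart and past the mark were 0 against CKO EtOH, 1 against control 4OHT and 1 in the difference of drug effects, and the lists had 0, 1 and 2, with 0 for control 4OHT against control EtOH. At 1.5-fold the members against CKO EtOH were 2. The lists, with 38 measured genes, then had 10 against CKO EtOH and 12 in the difference of drug effects. They had 6 for control 4OHT against control EtOH and 2 for CKO EtOH against control EtOH. Of all 7461 measured genes, 423 were 1.5-fold higher and 408 lower against CKO EtOH, and 830 and 635 in the difference of drug effects. For control 4OHT against control EtOH these were 295 and 292, and for CKO EtOH against control EtOH 44 and 56. Under the other alternatives the share over all measured genes was not counted, so nothing is read from their counts. At 3-fold, 1 member was left against control 4OHT and 1 in the difference of drug effects, and the lists had 3, 0 (control 4OHT against control EtOH) and 4. A pseudocount of 16 gave 1 and 1 members, since Fjx1 went to 0.63 and 0.66, and 3, 0 and 4 list genes; the floor gave 1 and 1, with Fjx1 at 0.93 and 0.96. Median centring left 0 list genes for control 4OHT against control EtOH. Amot, with the 2-fold call in CKO 4OHT against CKO EtOH, went from -1.78 to -0.83 with the pseudocount and -0.37 with the floor. Of 210 single differences of the members recomputed, 4 crossed 2-fold, all of Fjx1, and 10 changed sign, 8 of them of Yap1, none above 0.42 in size as reported. Dim signal limits Ankrd1, Lats2 and Tead1, for which no difference is read.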
